A study of Mus musculus with 10 samples.

Results

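Levels of 36 genes of the cell cycle and of DNA replication were followed across 10 RNA-seq libraries of the mouse midbrain at embryonic day 14.5. The genes were taken by symbol from the deposited table of 30935 gene IDs, and all 36 were found there and passed the filter on low counts. They were set apart by the stage in which their products chiefly act, as 15 genes of the entry into S phase and of replication and 21 genes of G2 and mitosis. One group of embryos was Rbfox1 +/+ (wild-type) and the other was Rbfox1 ΔHAR.321/ΔHAR.321, an allele named for the deletion of the element 2xHAR.321 of the Rbfox1 locus and labelled as its knockout (deletion). Human accelerated regions are conserved noncoding stretches that changed fast on the human lineage. Each group held 5 libraries (wild-type 1, 2, 4, 5 and 6; deletion 2, 3, 4, 5 and 6), described as biologically independent, and both groups were untreated as far as the labels say. Strain, sex, litter and the way the allele was made are not stated in the labels used here. The design asks whether the loss of this element alters gene levels in the midbrain.

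Whole midbrain was used, so each value is a mean over dividing progenitors, neurons that have left the cycle, vessels and blood. In such bulk samples fewer dividing cells and less of an mRNA per dividing cell cannot be told apart. The totals ran from 16246892 to 20255728 counts per library. Deletion 4 stood apart from the other deletion libraries, with a chi-square per degree of freedom of 20.6 to 33.1 against each, compared with 5.81 to 10.7 among the others and 6.66 to 16.9 among wild-type libraries. Markers of the midbrain such as Otx2, En1 and Th were present (14 of 14 tested, summed level 834 to 1009 in CPM, counts scaled to a common library size). Of the forebrain list 3 of 8 passed the filter, and Nkx2-1 and the Dlx genes were among those that did not. The 3 that passed, Emx1, Emx2 and Six3, had a summed level of 82.9 to 120 CPM in the wild-type and 88.5 to 115 CPM in the deletion group. Of the hindbrain list 2 of 8 passed, and no Hox gene did. Rbfox1 itself stood at 144, 166, 153, 140.4 and 140.5 CPM in wild-type 1, 2, 4, 5 and 6 and at 155, 154, 147, 168 and 181 CPM in deletion 2 to 6, which gave a log2 fold change of 0.11 (SE of 0.07, edgeR adjusted p = 0.606).

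In a cycling cell, cyclin D with Cdk4 or Cdk6 and cyclin E with Cdk2 inactivate the Rb family and free E2F factors, which switch on the genes of replication. Later, the MuvB complex with B-Myb and FoxM1 switches on the genes of mitosis. Proliferation in the embryonic midbrain is held mainly by radial glial progenitors at the ventricle and falls as neurons are born.

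No member passed the comparison of deletion with wild-type midbrain after adjustment over all genes. In edgeR's quasi-likelihood test, 0 of 36 members passed a Benjamini-Hochberg adjusted p of 0.05 over all 15288 genes tested, against a background of 0.0589% of all genes (9 genes, all lower in the deletion group). At an unadjusted p under 0.05 there was 1 member, Pcna, against 10.5% of all genes. In limma-voom 0 of 36 members passed (0.0589% of all genes). DESeq2 gave an adjusted p to only 13 of the 36 members and called 0 of those 13 (3.28% of the 8174 genes with an adjusted p), so the other 23 could not be called there. Groups that did not overlap were found for 0 of 36 members and for 2.49% of all genes. Of the S phase members 9 were lower and 6 higher, with a median log2 fold change of -0.06, and of the mitotic members 14 were lower and 7 higher, with a median of -0.08. The median over all genes was 0.00.

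The libraries of one group differed far more than the groups did, and they did so for nearly all members at once. Each library was scored by the mean of its log2 CPM over the members, centred on each gene's mean over the 10 libraries. The mitotic score was -0.75 in wild-type 2 and -0.64 in deletion 6, and between -0.01 and 0.41 in the other 8 libraries. The S phase score was -0.37 in wild-type 2 and -0.42 in deletion 6, and between -0.10 and 0.30 elsewhere. In both libraries all 36 members lay below their own mean. In units of level, the mitotic members averaged 0.596 times their mean in wild-type 2 and 0.643 times in deletion 6, against 1.33 times in wild-type 5 and 1.27 times in wild-type 1.

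**Figure D1:**
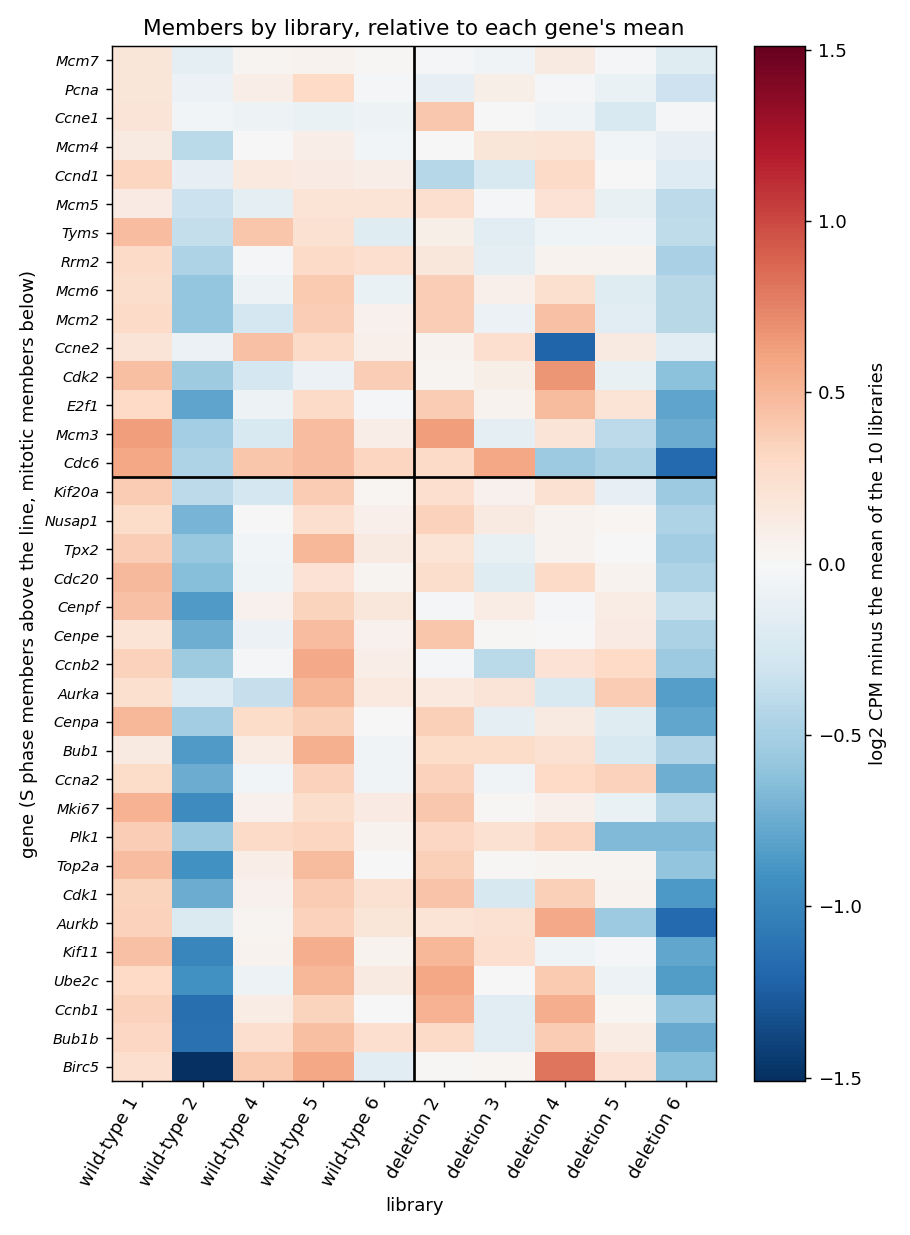
Colour shows each gene's log2 CPM in a library minus its mean over the 10 libraries, with S phase members above the horizontal line, mitotic members below it, and each set ordered by spread within groups. The columns of wild-type 2 and deletion 6 are blue for nearly every gene, while Ccne2 in deletion 4 stands alone at 5.01 CPM.

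The order of the libraries was much the same for both stages. Wild-type 1, wild-type 5, deletion 2 and deletion 4 had the highest scores in both, with values of 0.30, 0.23, 0.16 and 0.07 for S phase and 0.35, 0.41, 0.29 and 0.22 for mitosis. For S phase, wild-type 6 was all but level with deletion 4, also at 0.07. The 2 low libraries, wild-type 2 and deletion 6, belonged to different groups, and the group means lay close together. The mitotic score was 0.03 ± 0.46 in wild-type and -0.03 ± 0.37 in deletion midbrain (SD, n = 5 each), and the S phase score 0.05 ± 0.26 and -0.05 ± 0.23. For 28 of the 36 members the 2 lowest of the 10 libraries were exactly wild-type 2 and deletion 6. The 8 exceptions were the cyclin genes Ccnd1, Ccne1 and Ccne2, the replication genes Cdc6 and Pcna, and the mitotic kinase genes Aurka, Aurkb and Plk1.

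**Figure D2:**
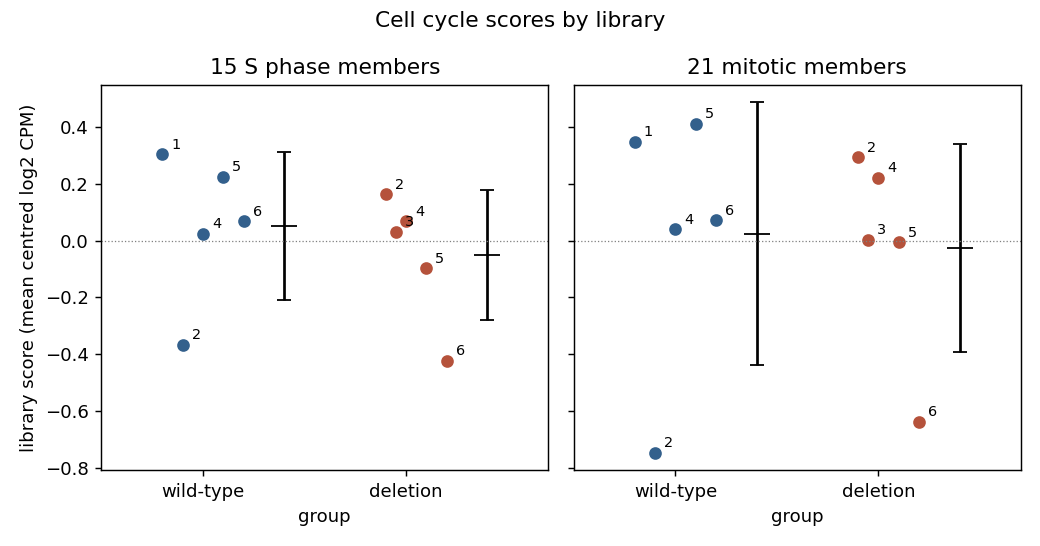
Points are libraries, labelled by replicate number, and the vertical axis is the mean centred log2 CPM of the 15 S phase members (left) or 21 mitotic members (right). Bars give the mean and SD of each group (n = 5), and wild-type 2 and deletion 6 lie lowest in both panels.

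Markers of progenitors and neurons were read in the same libraries. The score of 20 neural progenitor markers, such as Sox2, Nes and Hes5, was -0.10 in wild-type 2 and -0.32 in deletion 6, and -0.08 to 0.16 in the others. The summed level of these markers ran from 1826 to 2225 CPM in the wild-type and from 1642 to 2178 CPM in the deletion group. The score of 20 neuronal markers, such as Tubb3, Dcx and Stmn2, was 0.06 in wild-type 2 and 0.11 in deletion 6, within a range of -0.11 to 0.11 over all libraries. Their summed level ran from 13849 to 14874 CPM and from 13559 to 15596 CPM. Of these neuronal markers 14 were higher and 6 lower in the deletion group, 0 passed in edgeR and 7 (35%) had an unadjusted p under 0.05. Of the progenitor markers 2 were higher and 18 lower, 0 passed in edgeR and 5 (25%) had an unadjusted p under 0.05. Over all genes 0.0589% passed and 10.5% had an unadjusted p under 0.05. The part of cell composition in the low cell cycle values was not tested.

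Other cells that can divide in the embryonic midbrain include endothelium, microglia and red cell precursors. Endothelial markers (10 of 10 tested, led by genes such as Pecam1 and Cldn5) scored -0.01 in wild-type 2 and -0.06 in deletion 6. Microglial markers (10 of 10 tested) scored -0.01 in both. Red blood cell markers (7 of 10 tested) scored 0.08 and 0.00, and ranged from -0.37 in wild-type 1 to 0.29 in deletion 4. The summed level of the endothelial list was 170.4 to 206 CPM in the wild-type and 173 to 201 CPM in the deletion group. That of the microglial list was 73.7 to 80.0 and 67.8 to 78.5 CPM, and that of the red blood cell list 1699 to 2555 and 2234 to 2981 CPM. The trend of each library's log2 CPM on transcript length differed between the genotypes in all libraries but deletion 4. The trend was negative in all 5 wild-type libraries (-0.06 to -0.01 per doubling, with -0.01 in wild-type 2) and in deletion 4 (-0.05), and positive in the other 4 deletion libraries (0.03 to 0.10, with 0.10 in deletion 6). With the trend removed, the medians were -0.04 for the S phase members and -0.11 for the mitotic members. In edgeR 0 of 36 members then passed or had an unadjusted p under 0.05. Of all 14119 genes tested in that setting 0 passed and 7.82% had an unadjusted p under 0.05.

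Promoters are shown for 3 members of each stage, since the genes of each stage are known to be driven through short shared elements. In mitotic genes these are the cell cycle homology region (CHR, searched as TTTGAA or TTCGAA), which binds MuvB, and the CCAAT box (searched as CCAAT), which binds NF-Y. In S phase genes it is the E2F site, searched as TTTCCCGC, TTTCGCGC, TTTGCCGC or TTTGGCGC. RefSeq windows (GRCm38.p6) from 250 bases before to 50 bases after the annotated start were found for 29 of the 36 members, and both strands were searched. Matches on opposite strands may overlap each other. A CHR and a CCAAT box occurred together in 13 of 17 mitotic windows (76.5%), in 2 of 13 S phase windows (15.4%) and in 7.52% of all 32851 windows. Counted singly, a CCAAT box was in 15 of 17 mitotic windows (88.2%), 9 of 13 S phase windows (69.2%) and 37.4% of all windows. A CHR was in 13 of 17 mitotic windows, 2 of 13 S phase windows and 19.2% of all windows. An E2F word occurred in 6 of 13 S phase windows (46.2%), in 1 of 17 mitotic windows (5.88%, Cdk1) and in 2.26% of all windows. The counts of the study were made on mm39, and no coordinate was carried between builds.

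Top2a, Mki67 and Cenpf are the 3 mitotic members with both elements and the highest mean CPM. Their windows are chr11:99024140-99024439, chr7:135716330-135716629 and chr1:189688037-189688336, all on the minus strand and written in the direction of the gene, with CHR and CCAAT words in capitals on either strand.
Top2a: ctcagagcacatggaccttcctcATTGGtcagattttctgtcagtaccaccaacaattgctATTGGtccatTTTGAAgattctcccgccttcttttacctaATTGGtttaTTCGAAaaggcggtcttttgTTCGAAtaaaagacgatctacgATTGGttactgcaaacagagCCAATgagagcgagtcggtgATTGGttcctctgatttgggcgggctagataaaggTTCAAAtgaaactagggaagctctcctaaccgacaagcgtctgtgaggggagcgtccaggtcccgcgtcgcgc
Mki67: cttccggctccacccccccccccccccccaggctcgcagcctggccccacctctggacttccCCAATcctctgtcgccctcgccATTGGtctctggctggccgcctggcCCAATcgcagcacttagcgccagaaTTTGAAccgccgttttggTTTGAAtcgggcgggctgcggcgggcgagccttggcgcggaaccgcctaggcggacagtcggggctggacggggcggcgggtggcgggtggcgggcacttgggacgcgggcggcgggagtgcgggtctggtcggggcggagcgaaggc
Cenpf: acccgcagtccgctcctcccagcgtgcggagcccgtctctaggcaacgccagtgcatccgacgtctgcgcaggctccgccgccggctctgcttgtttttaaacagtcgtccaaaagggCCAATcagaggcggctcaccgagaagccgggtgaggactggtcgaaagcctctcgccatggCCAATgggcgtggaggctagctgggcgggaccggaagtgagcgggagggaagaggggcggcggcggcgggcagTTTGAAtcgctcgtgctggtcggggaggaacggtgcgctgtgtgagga
The Top2a window held 10 matches, the Mki67 window 5 and the Cenpf window 3. In Cenpf the CHR lay just after the annotated start.

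Mcm7, Mcm6 and Mcm5 are the 3 S phase members with an E2F word and the highest mean CPM. Their windows are chr5:138171834-138172133 and chr1:128359656-128359955 on the minus strand and chr8:75109259-75109558 on the plus strand, with only E2F words in capitals. CHR and CCAAT words in these windows are left in small letters.
Mcm7: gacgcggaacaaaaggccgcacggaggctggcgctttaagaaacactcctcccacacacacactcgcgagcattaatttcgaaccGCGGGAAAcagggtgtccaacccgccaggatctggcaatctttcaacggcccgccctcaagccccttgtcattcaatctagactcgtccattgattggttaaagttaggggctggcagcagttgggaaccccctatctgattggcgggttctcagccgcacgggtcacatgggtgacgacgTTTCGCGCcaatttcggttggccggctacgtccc
Mcm6: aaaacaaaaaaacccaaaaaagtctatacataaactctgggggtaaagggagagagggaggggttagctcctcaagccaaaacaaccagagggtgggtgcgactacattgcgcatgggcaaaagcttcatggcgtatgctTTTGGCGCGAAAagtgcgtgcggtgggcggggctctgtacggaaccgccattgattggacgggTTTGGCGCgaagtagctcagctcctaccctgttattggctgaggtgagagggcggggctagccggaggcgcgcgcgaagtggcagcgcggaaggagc
Mcm5: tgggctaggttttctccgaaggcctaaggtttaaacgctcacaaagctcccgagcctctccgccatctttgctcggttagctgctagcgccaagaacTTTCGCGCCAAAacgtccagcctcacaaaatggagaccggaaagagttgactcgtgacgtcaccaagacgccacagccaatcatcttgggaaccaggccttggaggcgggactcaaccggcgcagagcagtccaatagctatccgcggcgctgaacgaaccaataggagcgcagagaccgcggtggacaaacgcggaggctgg
In Mcm6 and Mcm5 a match on each strand overlapped to form one longer run of capitals. These are matches of letters, and binding was not measured.

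Members differed in how widely they spread within groups. For 28 of the 36 the 2 lowest libraries were wild-type 2 and deletion 6, and the SD was not computed without these libraries. The SD of log2 CPM within groups had a median of 0.45 over the mitotic members and 0.29 over the S phase members, against 0.17 over all genes tested. All 21 mitotic members lay above the upper quartile of all genes (0.30), and 7 of 15 S phase members did. Counting error adds to the spread of low genes such as Cdc6, which had only 25 to 86 counts per library. Birc5, which encodes survivin of the chromosomal passenger complex, spread most (SD 0.69), from 2.58 CPM in wild-type 2 to 12.9 CPM in deletion 4. Mcm7 spread least, with an SD of 0.12 and a highest library only 1.29 times the lowest.

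**Figure D3:**
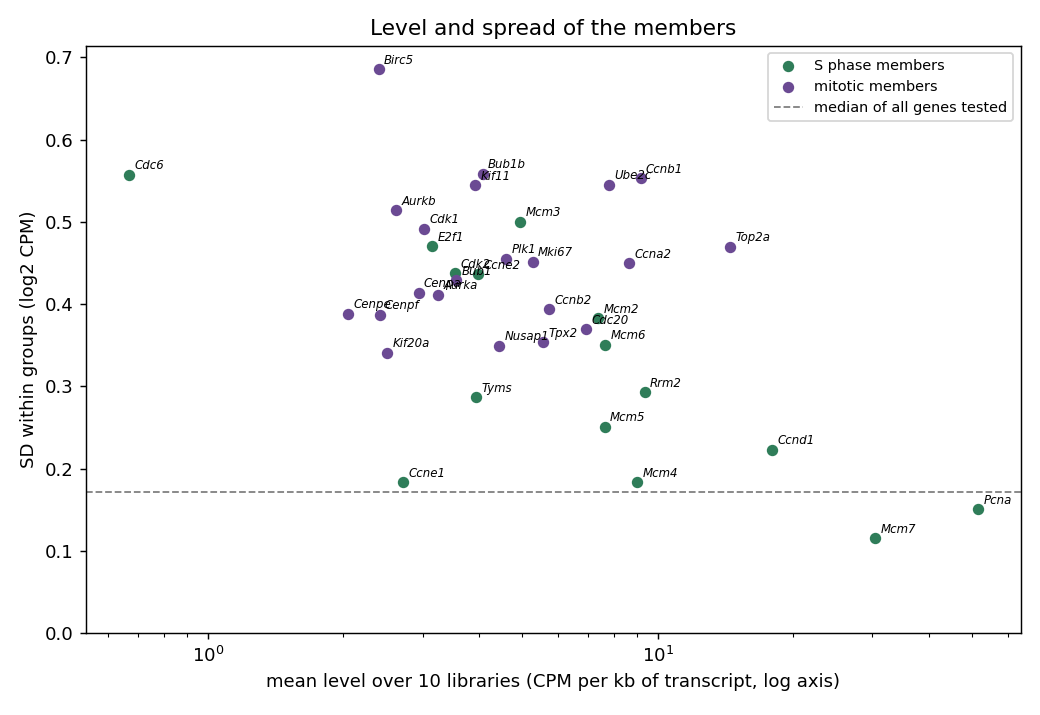
Each point is a member, with its mean level over 10 libraries in CPM per kb of its longest transcript on a log axis and the SD of log2 CPM within groups on the vertical axis. Pcna and Mcm7, the highest members per length, lie below the dashed median of all genes (0.17), and every mitotic member lies above it.

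Ccnd1, the G1 cyclin that couples growth signals to the cycle, was among the S phase members with the smallest p. Its level was 83.0, 60.9, 73.4, 72.5 and 70.9 CPM in wild-type 1, 2, 4, 5 and 6 and 49.3, 56.4, 81.0, 66.8 and 57.9 CPM in deletion 2 to 6. In 4 of 5 deletion libraries the value was under the wild-type mean, but deletion 4 was second only to wild-type 1 and the groups overlapped. The log2 fold change was -0.21 (SE 0.11, edgeR adjusted p = 0.530), and without deletion 4 it was -0.32 (SE 0.09, adjusted p = 0.0518, within a range of 0.0518 to 0.891 over 20 alternatives).

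The cyclin E genes, whose products start S phase with Cdk2, did not share one pattern. Ccne1 stood at 6.14, 5.23, 5.08, 5.02 and 5.08 CPM in the wild-type and at 7.14, 5.42, 5.21, 4.58 and 5.31 CPM in the deletion libraries, in the same orders as above. Wild-type 2 and deletion 6 were not its lowest libraries, and its log2 fold change was 0.06 (SE 0.17, adjusted p = 0.948). Ccne2 ran from 10.8 to 15.6 CPM in the wild-type and from 5.01 to 13.8 CPM in the deletion group, with deletion 4 lowest (log2 fold change -0.30, SE 0.20, adjusted p = 0.658). Without deletion 4 the Ccne2 value was -0.11 (SE 0.13, adjusted p = 0.752, within a range of 0.499 to 0.864 over the 19 alternatives that gave one). Cdk2 had a fold change on the log2 scale of 0.04 (SE 0.22), and E2f1, the activator of replication genes, one of 0.13 (SE 0.22), and neither passed.

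Cdc6 loads the replicative helicase onto origins and was the scarcest member at 0.667 CPM per kb. It stood at 4.48, 2.15, 3.98, 4.13 and 3.72 CPM in the wild-type libraries and at 3.63, 4.47, 2.03, 2.13 and 1.31 CPM in the deletion libraries. Deletion 6 was below every wild-type library, at 25 counts, while deletion 3 lay close to the highest of them. Deletion 4 and 5 (41 and 40 counts) were all but level with wild-type 2 (35 counts). The log2 fold change of -0.45 was the lowest of all members, but its interval was wide (SE 0.29, 95% interval -1.05 to 0.14, adjusted p = 0.623).

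The helicase that Cdc6 loads is a ring of Mcm2 to Mcm7, one copy of each. Mcm2 stood at 30.5, 16.7, 20.8, 32.4 and 26.2 CPM in the wild-type and at 32.4, 23.5, 34.2, 22.3 and 18.7 CPM in the deletion libraries. Wild-type 2 and deletion 6 were its lowest libraries, and the log2 fold change was 0.05 (SE 0.20, adjusted p = 0.968). The other subunits lay between -0.17 for Mcm3 (SE 0.28) and 0.08 for Mcm4 (SE 0.10), none past the test. Per length, Mcm2 to Mcm6 had mean levels of 4.94 to 9.01 CPM per kb and Mcm7 one of 30.4 CPM per kb. Mcm3 spread most in the ring, with its highest library 2.60 times its lowest.

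Pcna, the sliding clamp of DNA polymerase, had the smallest p of all members and the highest level per length (51.5 CPM per kb). It stood at 88.2, 73.3, 83.0, 95.8 and 76.5 CPM in the wild-type and at 71.0, 82.6, 76.2, 72.5 and 62.5 CPM in the deletion libraries. Each of the 5 deletion values was under the wild-type mean of 83.4 CPM, yet deletion 3 and 4 lay within the wild-type range. The log2 fold change was -0.19 (SE 0.08, 95% interval -0.36 to -0.02, adjusted p = 0.399). With each library's length trend removed it was -0.10 (SE 0.07, adjusted p = 0.770), and with the length and GC trends removed -0.07 (SE 0.07, adjusted p = 0.786), within a range of 0.183 to 0.786 over 20 alternatives.

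Tyms and Rrm2 supply the nucleotides of replication. Tyms, thymidylate synthase, stood at 20.8, 11.7, 20.1, 17.7 and 13.2 CPM in the wild-type and at 16.0, 13.5, 14.4, 14.5 and 11.5 CPM in the deletion libraries. Again each deletion value was under the wild-type mean, here 16.7 CPM, but only deletion 6 lay below the lowest wild-type library. The log2 fold change was -0.26 (SE 0.15, adjusted p = 0.569). Rrm2, a subunit of ribonucleotide reductase, had one of -0.15 (SE 0.14, adjusted p = 0.768).

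Among the mitotic members, Mki67 (the Ki-67 antigen, present in all cycling cells) stood at 73.5, 26.4, 53.5, 61.7 and 55.8 CPM in the wild-type and at 67.7, 52.0, 53.9, 47.9 and 38.0 CPM in the deletion libraries. The lowest and the highest value of all 10 libraries were both wild-type. The log2 fold change was -0.07, with a 95% interval of -0.65 to 0.52 (SE 0.26, adjusted p = 0.966). Top2a, which untangles chromosomes before division, stood at 100.9, 38.7, 77.6, 101.5 and 72.6 CPM and at 93.2, 73.6, 75.0, 74.8 and 48.0 CPM. Its log2 fold change was -0.10 (SE 0.27, adjusted p = 0.942), and again both extremes were wild-type.

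Entry into mitosis is driven by Cdk1 with cyclin B. Cdk1 stood at 16.0, 7.56, 13.3, 16.5 and 14.9 CPM in the wild-type and at 17.1, 10.7, 16.3, 13.1 and 6.94 CPM in the deletion libraries (log2 fold change -0.09, SE 0.24, adjusted p = 0.938). Ccnb1 stood at 27.5, 9.78, 23.3, 27.2 and 21.6 CPM and at 31.2, 19.1, 31.7, 22.1 and 14.3 CPM (log2 fold change 0.11, SE 0.31, adjusted p = 0.946). Both genes were lowest in wild-type 2 and deletion 6 and highest in a deletion library. Ccnb2 stood at 10.8, 5.84, 8.40, 12.6 and 9.12 CPM and at 8.31, 6.43, 9.87, 10.5 and 5.78 CPM (log2 fold change -0.20, SE 0.19, adjusted p = 0.789). Ccna2, the cyclin of S phase and G2, had a fold change on the log2 scale of 0.09 (SE 0.24).

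Centromere and spindle genes were compared next. Cenpa, the histone H3 variant that marks centromeres, stood at 15.3, 7.50, 13.0, 13.9 and 10.9 CPM in the wild-type and at 13.9, 9.78, 11.9, 9.54 and 6.25 CPM in the deletion libraries. Its log2 fold change of -0.25 (SE 0.20, adjusted p = 0.723) was the lowest of the mitotic members, and 4 of 5 deletion values were under the wild-type mean. Tpx2, which activates Aurora A on spindle microtubules, stood at 30.7, 15.9, 23.0, 33.6 and 26.1 CPM and at 27.2, 21.8, 24.5, 23.5 and 16.4 CPM (log2 fold change -0.19, SE 0.17, adjusted p = 0.766). Deletion 2 to 5 lay within the wild-type range for both genes, and so did deletion 6 for Tpx2. The kinetochore genes Cenpe and Cenpf had log2 fold changes of 0.01 (SE 0.19) and -0.12 (SE 0.19). The spindle genes Kif11, Kif20a and Nusap1 had ones of -0.08 (SE 0.30), -0.06 (SE 0.18) and 0.02 (SE 0.16).

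The kinase genes Plk1, Aurka and Aurkb did not have wild-type 2 and deletion 6 as their lowest pair of libraries. Plk1 stood at 12.6, 6.58, 11.9, 12.2 and 10.1 CPM in the wild-type and at 12.1, 11.4, 12.2, 6.13 and 6.15 CPM in the deletion libraries. Deletion 5, whose mitotic score was -0.01, was as low for Plk1 as deletion 6, and the log2 fold change was -0.16 (SE 0.22, adjusted p = 0.858). For Aurka, wild-type 4 (4.70 CPM) lay below wild-type 2 (5.23 CPM), and for Aurkb, deletion 5 (3.30 CPM) lay below wild-type 2 (4.18 CPM). Their log2 fold changes were -0.11 (SE 0.21) and -0.17 (SE 0.25). The spindle checkpoint genes Bub1 and Bub1b had ones of 0.00 (SE 0.20) and -0.11 (SE 0.28). Birc5 had one of 0.09 (SE 0.34), and Cdc20 and Ube2c, which drive exit through the anaphase-promoting complex, had ones of -0.04 (SE 0.18) and 0.02 (SE 0.30). None of these passed in edgeR.

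**Figure D4:**
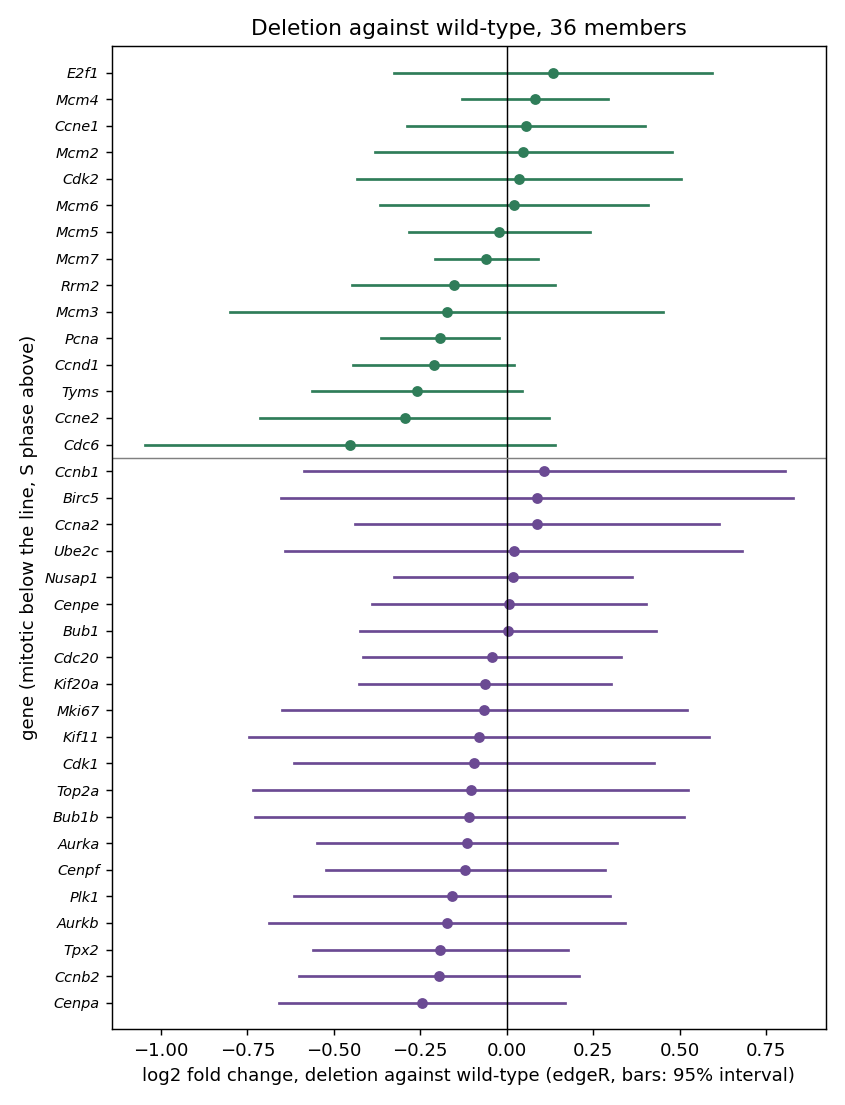
Points are log2 fold changes of deletion against wild-type for the 36 members and bars are 95% intervals from edgeR. All intervals cross 0 except that of Pcna (-0.36 to -0.02), which did not pass over all genes (adjusted p = 0.399).

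The spread between libraries set what the comparison could show. Over the mitotic members the lowest bound of any 95% interval was -0.74 and the highest 0.83 on the log2 scale, so folds down to 0.597 and up to 1.78 lay within the intervals of single genes. Over the S phase members the bounds were -1.05 and 0.59. The result leaned on wild-type 2. Without it, 35 of 36 members were lower in the deletion group (Ccne1 was the exception), with medians of -0.11 for S phase and -0.24 for mitosis. Even then 0 members passed in edgeR (0.57% of all genes did). The 8 at an unadjusted p under 0.05 were Ccnd1, Cdc6, Pcna, Tyms, Rrm2, Cenpa, Cenpf and Tpx2, against 13.2% of all genes. Without deletion 6, 23 members were higher and 13 lower, with a mitotic median of 0.05. Leaving out wild-type 2 and deletion 6 together, chosen after the data were seen, gave medians of -0.07 for both sets, 27 members lower and 0 passing (0.098% of all genes passed). Of the members 3 then had an unadjusted p under 0.05 (Pcna, Tyms and Cenpf), against 11.4% of all genes.

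Further genes of the same machinery, listed by function, were read from the same fits. Of 159 such genes tested, 0 passed in edgeR over all genes in either direction (8, or 5.03%, had an unadjusted p under 0.05, against 10.5% of all genes). DESeq2 called 1, Rbl2, of the 64 to which it gave an adjusted p (3.28% over all genes), and limma-voom called 0 of 159. In each of the 6 lists wild-type 2 and deletion 6 had the lowest library scores, at different depths. Genes of spindle motors and cytokinesis scored -0.58 and -0.38 there, and kinetochore and spindle checkpoint genes -0.38 and -0.33. Genes of the replication fork and origin scored -0.23 and -0.16, and the subunits and partners of the anaphase-promoting complex only -0.08 and -0.16. The median SD within groups ran from 0.11 in the anaphase-promoting complex list to 0.37 in the kinetochore list, against 0.41 over the 36 members.

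**Figure D5:**
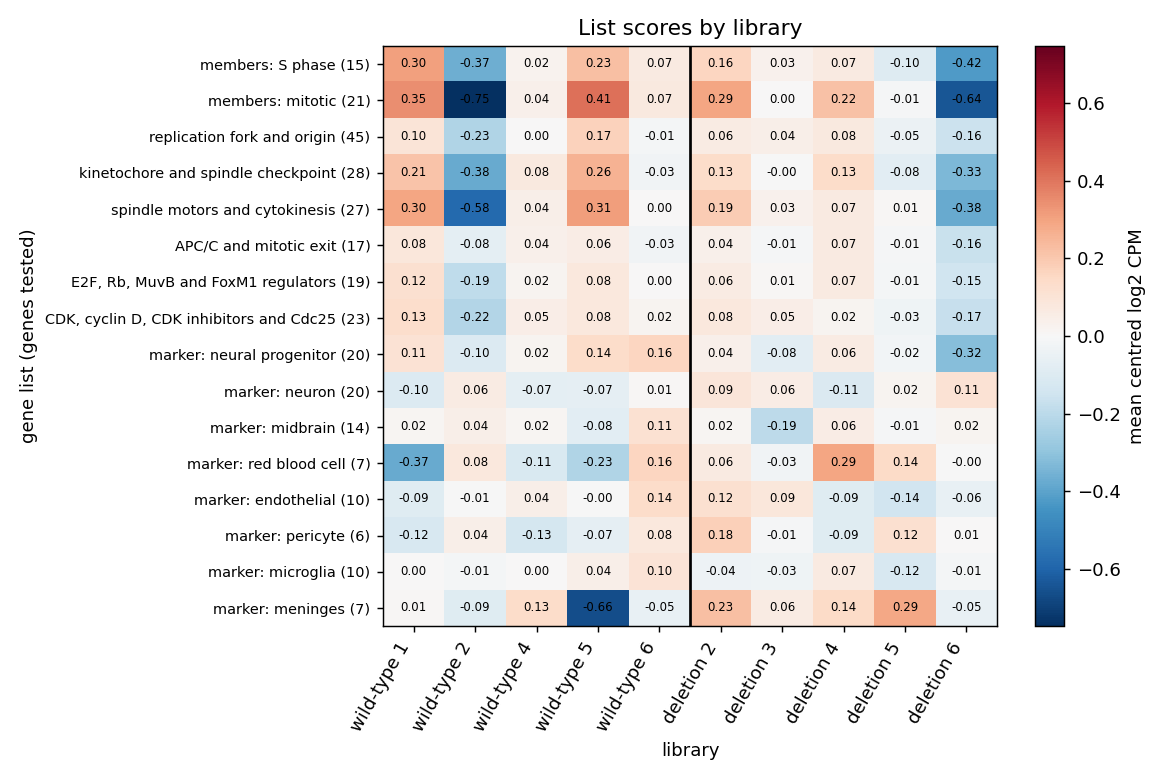
Each cell is the mean centred log2 CPM of a gene list in a library, with the number of genes tested in parentheses. Wild-type 2 and deletion 6 hold the lowest values of the mitotic members (-0.75 and -0.64), with smaller shifts in the replication fork and regulator lists and scores of 0.06 and 0.11 for neuronal markers.

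Replication fork and origin genes had a median log2 fold change of -0.03 (17 of 45 higher). The licensing factor gene Cdt1, which loads the helicase together with Cdc6, stood at 5.78, 6.33, 4.26, 5.80 and 5.45 CPM in the wild-type and at 6.65, 6.59, 9.47, 7.14 and 6.67 CPM in the deletion libraries. Its groups did not overlap, as was so for 2.49% of all genes (log2 fold change 0.41, SE 0.16), but it did not pass (adjusted p = 0.357). Orc1, of the origin recognition complex, had a fold change on the log2 scale of 0.54 (SE 0.25, adjusted p = 0.458) at 31 to 67 counts per library.

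Kinetochore and spindle checkpoint genes had a median log2 fold change of -0.08 (9 of 28 higher), and spindle motor and cytokinesis genes one of -0.06 (9 of 27 higher). Ndc80, which links kinetochores to microtubules, had one of -0.50 (SE 0.22, adjusted p = 0.414), Pmf1 of the Mis12 complex one of -0.30 (SE 0.17) and Ska2 one of -0.15 (SE 0.08). Kifc1, a minus-end kinesin of the spindle, did not pass, at a log2 difference of -0.52 (SE 0.19, adjusted p = 0.275), its wild-type mean being 8.86 ± 2.61 CPM and its deletion mean 6.19 ± 1.04 CPM (SD, n = 5). The condensin gene Ncapd2 had one of 0.15 (SE 0.11) and the spindle gene Ckap2l one of -0.28 (SE 0.21). Genes of the anaphase-promoting complex and mitotic exit had a median of -0.01 (6 of 17 higher), with values of -0.12 for Ube2s (SE 0.06), -0.10 for Cdc16 (SE 0.06) and -0.20 for Anapc13 (SE 0.12).

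Regulators above the members were compared last. The E2F, Rb, MuvB and FoxM1 list had a median log2 fold change of -0.04 (6 of 19 higher). Rbl2, which encodes the Rb relative p130 that holds cell cycle genes silent in resting cells, stood at 36.4, 40.2, 33.0, 38.7 and 38.6 CPM in the wild-type and at 45.3, 46.9, 40.6, 46.2 and 47.1 CPM in the deletion libraries. Every deletion library lay above every wild-type library (log2 fold change 0.27, SE 0.08, edgeR adjusted p = 0.160). Groups did not overlap for 2.49% of all genes. Rbl2 passed in DESeq2 (adjusted p = 0.0324) and, in edgeR, without deletion 4 (adjusted p = 0.0265), with adjusted p from 0.0265 to 0.731 over all 20 alternatives. DESeq2 called 3.28% of all genes with an adjusted p, and edgeR without deletion 4 called 357 of 15433 genes. E2f4 had a fold change on the log2 scale of 0.16 (SE 0.11) and E2f5 one of -0.14 (SE 0.11).

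The list of D cyclins, their kinases, CDK inhibitors and Cdc25 phosphatases had a median of -0.03 (9 of 23 higher, with Cdkn2a and Cdkn2b not tested). Cdk4 stood at 310.0, 232, 278, 297 and 278 CPM in the wild-type and at 236, 244, 289.7, 236 and 203 CPM in the deletion libraries (log2 fold change -0.21, SE 0.09, adjusted p = 0.381). Wild-type 2 lay among the lower deletion libraries and deletion 4 among the wild-type ones, and without deletion 4 the gene passed (adjusted p = 0.0493, within a range of 0.0493 to 0.854 over 20 alternatives). In that setting 357 of all 15433 genes passed. Cdkn1c, the CDK inhibitor p57 of cells leaving the cycle, stood at 436, 257, 410.5, 415 and 381 CPM and at 319, 281, 324, 364 and 275 CPM (log2 fold change -0.28, SE 0.12, adjusted p = 0.429). Its lowest library was wild-type 2, and without that library it passed (log2 fold change -0.40, SE 0.08, adjusted p = 0.0263, within a range of 0.0263 to 0.874 over 20 alternatives). Without wild-type 2, 0.57% of all genes passed. Skp2, which marks the inhibitor p27 for degradation, had a fold change on the log2 scale of 0.23 (SE 0.11, adjusted p = 0.459).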

How the data were processed

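Per the labels' protocols, RNA of whole midbrain was extracted with a Direct-zol kit. Raw counts were deposited by the authors per Entrez gene ID for 10 libraries, while HISAT2, featureCounts and mm39 are named in the submitters' processing notes. Versions, annotation, strandedness and the treatment of reads from several loci were not given in the sources used here, so counts of genes with close copies or overlapping neighbours are uncertain. Symbols came from a RefSeq table (GRCm38.p6, names only) for 30648 of 30935 IDs, and the other 287 held 0.0116% of counts.

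Counts were tested in edgeR 4.0.16 (R 4.3.3) with filterByExpr, TMM factors and the robust quasi-likelihood test, two-sided, with Benjamini-Hochberg adjustment over 15288 genes. The SE is the log2 fold change divided by the square root of F. CPM used TMM library sizes, and log2 CPM a prior count of 2. Alternatives were DESeq2 1.42.0, limma-voom (limma 3.58.1), other scalings and filters, a replicate block, trends on transcript length and GC content, and leaving out libraries. Levels per kb used the longest GENCODE M21 transcript, which all 36 members had (92.4% of genes tested).

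The members and lists were chosen with earlier results of these data known. Full values are given for 8 phase markers, the 4 members of each stage with the smallest p, and the 3 genes of each pathway list with the smallest p, except 1 that is not reported here. Which of those pathway genes are given library by library (Cdt1, Rbl2, Cdk4 and Cdkn1c), and Birc5 and Ccne2, was chosen after the values were seen. Deletion 4 differed most from its group, and no pair of libraries of one group agreed within sampling noise (lowest chi-square per degree of freedom 5.81). In simulated counts of 15128 genes for this comparison, the test recovered 32.8% of 1.25-fold, 89.6% of 1.5-fold and 98.5% of 2-fold changes in genes of at least 10 CPM, with 7.55% of calls false. These rates are for genes in general. The members spread more within groups than most genes and 8 of the 36 averaged under 10 CPM, so the rates do not hold for them. P-values measure the spread between these libraries only.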

Additional observations from a re-analysis of the deposited data

Results flagged for a closer look

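Single libraries stood far from the rest of their group for 2 of 78 sets of 5 libraries examined by Dixon's criterion, which flags about 5% of such sets by chance. Ccne1 was 6.14 CPM in wild-type 1, against 5.02 to 5.23 CPM in the other 4 wild-type libraries. Bub1b was 6.52 CPM in wild-type 2, against 16.9 to 19.5 CPM in the other 4.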

How the results depend on the processing

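Of the 36 members 0 passed in the edgeR result and in the alternatives other than DESeq2, where 0 of the 13 with an adjusted p passed and 23 had none. The count over all genes was less stable. It was 9, and became 15 with upper-quartile factors, 69 with no filter on low counts, 268 in DESeq2, 0 with the length trend removed and 17 with the length and GC trends removed. Leaving out single libraries gave 0 to 357 genes. The count was 88 without wild-type 2, 357 without deletion 4, 3 without deletion 3 or 6, 1 without wild-type 4 and 0 without any other. Without both wild-type 2 and deletion 6, chosen after seeing the data, it was 15. Of the pathway genes DESeq2 called 1 (Rbl2), and edgeR called 1 without wild-type 2 (Cdkn1c) and 2 without deletion 4 (Rbl2 and Cdk4), so leaving out libraries gave 0 to 2. The cause was not tested.

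With the replicate number as a block, 0 members and 0 genes passed. The labels do not say whether the numbers pair the samples. Deviations of same-numbered libraries correlated at -0.08, -0.13, -0.06 and 0.12 (numbers 2, 4, 5 and 6, over 10829 genes). These values cannot decide it, since a weak shared effect could go unseen in them. Signs of uncalled members were unstable: 12 changed without wild-type 2, 10 without deletion 6 and 7 under the block. Counts of 25 to 86 limit Cdc6.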

Other observations

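Deletion 4 was low for Ccne2 and high for some other S phase genes. Ccne2 was 5.01 CPM there, against 10.4 to 15.6 CPM in the other 9 libraries. Cdc6 was 2.03 CPM there, but 1.31 CPM in deletion 6, 2.13 CPM in deletion 5 and 2.15 CPM in wild-type 2. In deletion 4 E2f1 (11.6 CPM), Cdk2 (17.7 CPM), Mcm2 (34.2 CPM) and Mcm4 (36.9 CPM) were at their highest of the 10 libraries, and so was Cdt1 (9.47 CPM). The margin was small for Mcm4 (36.5 CPM in deletion 3) and Mcm2 (32.4 CPM in wild-type 5 and deletion 2). These genes were picked after their values were seen, and no test was run.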
